A study of Mus musculus with 4 samples.

Results

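The genes described here encode the subunits, assembly chaperones, activators and inhibitor of the proteasome. They are the rows of the count table whose gene name begins with Psma to Psmg followed by a digit. The pattern matched 49 of 23473 gene rows. One match, Psmc3ip, encodes a factor of meiotic recombination and no proteasome component. It is reported apart, which leaves 48 proteasome genes. RNA-seq was run on MIN6 cells, a mouse insulinoma line used as a model of the pancreatic beta cell. TLX is the nuclear receptor encoded by Nr2e1. MIN6 cells with stable TLX overexpression gave 2 libraries, and wild type control cells gave the other 2. The culture medium of both held 25 mM glucose and 15% serum. The labels do not say which vector or promoter drives TLX, whether the line is 1 clone, whether the controls carry an empty vector, or whether replicates are separate cultures, so p-values measure only the spread between these samples.

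The proteasome degrades proteins tagged with ubiquitin. Its 20S core is a barrel of alpha rings, which gate the entry, and beta rings, which hold the proteolytic sites. The 19S cap recognises ubiquitin, removes it and feeds the unfolded protein into the core with a ring of ATPases. Dedicated chaperones assemble core and cap. Interferons induce the alternative catalytic subunits Psmb8, Psmb9 and Psmb10, which replace Psmb5, Psmb6 and Psmb7 and form the immunoproteasome, and the activator PA28, encoded by Psme1 and Psme2. These favour the production of peptides for MHC class I. Beta cells depend on the proteasome to remove misfolded secretory proteins.

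Gene rows held 8490145 and 8136185 counts in TLX replicates 1 and 2, and 8435976 and 9788646 in control replicates 1 and 2. Nr2e1 was counted 338 and 281 times in TLX libraries, against 8 and 10 times in control libraries. Levels are CPM, counts scaled to the library's gene row counts. The limit that a count of 0 sets (3 counts) was 0.302 to 0.378 CPM, for counting error only. The markers of the labelled cell type were largely absent: of 11 beta cell markers 7 (Nkx6-1, Neurod1, Slc2a2, Iapp, Chga, Pcsk1 and Pcsk2) had 0 counts in all libraries, and the list summed to 20.8 to 21.7 CPM in TLX and 18.3 to 20.6 CPM in control. Of 6 leukocyte markers 4 had at most 3 counts in each library, Ptprc among them, and the sum was 59.7 to 62.8 CPM in TLX and 76.8 to 85.5 CPM in control, nearly all of it Cd68 and Lyz2. The 8 mesenchymal markers summed to 6725 and 6833 CPM in TLX and to 6029 and 6383 CPM in control, with Lum at 0 and Dcn and Thy1 at no more than 3 counts in any library. The other 5 did not move together: Col1a2 (log2 fold change 0.28) and Sparc (0.87) rose, Fn1 fell (-0.76), and Vim (0.16) and Col1a1 (-0.14) did not pass. The part of these markers in the results was not tested. The share of the ribosomal precursor Rn45s was 12.2% and 16.7% in TLX and 14.2% and 14.3% in control.

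Proteasome transcripts were abundant in all 4 libraries and as a whole differed by less than the replicates did. The 48 genes summed to 5905 and 5697 CPM in TLX libraries, against 5786 and 5409 CPM in control libraries. The TLX mean was 3.63% higher, at 5801 ± 147 CPM against 5598 ± 266 CPM in control (SD, n = 2 each), and the groups overlapped (2-sided exact permutation p = 0.667, where 2 libraries against 2 cannot go below 0.333). The summed 20S core stood at 2228 ± 77 CPM in TLX and 2150 ± 136 CPM in control, and the summed 19S cap at 2752 ± 71 CPM in TLX and 2677 ± 131 CPM in control. Both sums overlapped between the groups. The 7 assembly chaperone genes summed to 304.5 and 298.7 CPM in TLX, against 275.4 and 276.6 CPM in control, which do not overlap (permutation p = 0.333). This sum follows 1 gene, Psmd5, with means of 109.8 CPM in TLX and 82.7 CPM in control. Psmg3 went the other way, at 29.1 CPM in TLX and 40.1 CPM in control, and the other 5 did not pass. Of all single genes tested, 57.1% did not overlap between the groups.

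Per length, the genes spanned a wide range that was nearly the same in both groups. The highest mean level over the 4 libraries was that of Psmb4, a structural beta subunit, at 318 CPM per kilobase of feature length, followed by Psmb5 at 298, Psma7 at 233 and the lid subunit gene Psmd8 at 210 CPM per kilobase. Medians over tested genes were 100 CPM per kilobase for the alpha ring, 102 for the ATPases, 63.8 for the lid, 28.5 for the cap chaperones and 24.7 for the core chaperones. The lowest tested gene was Psmb9, at 2.57 CPM per kilobase. Psma8, a testis alpha subunit, had 0 counts in every library. Psmb11, the catalytic subunit of the thymus, had 0 and 1 counts in TLX and 1 and 2 counts in control. These 2 genes had too few counts for the test, and the other 46 passed the filter.

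**Figure D1:**
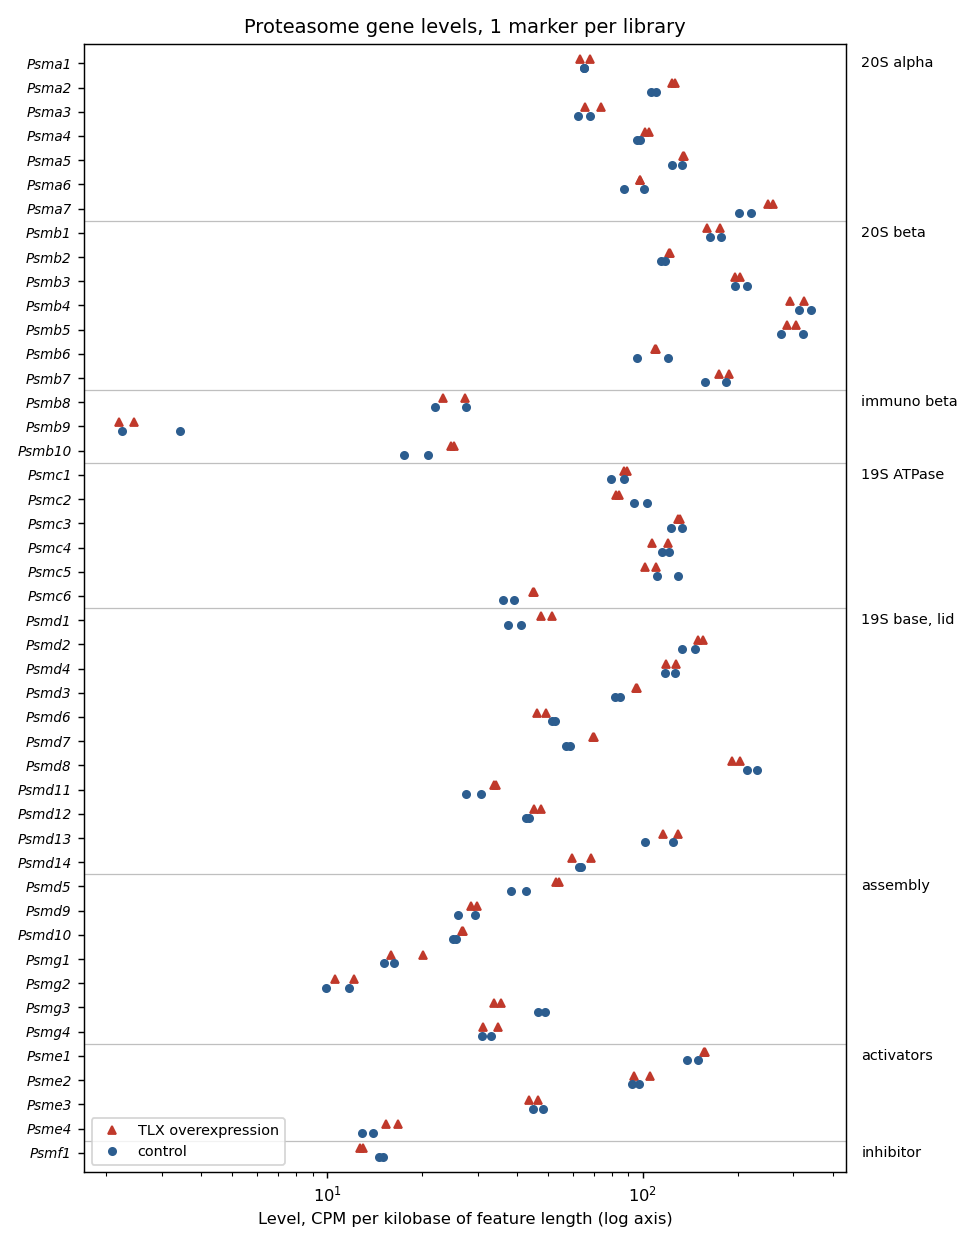
Levels of the 46 tested proteasome genes in CPM per kilobase of feature length (log axis), with 1 triangle per TLX library and 1 circle per control library, grouped by role. Triangles and circles lie close together for most genes, while genes differ from each other from 2.57 (Psmb9) to 318 (Psmb4) CPM per kilobase.

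Of the 46 tested genes 7 rose and 2 fell with TLX, and 37 did not pass (edgeR quasi-likelihood test, adjusted p under 0.05 over 11024 genes). That is 19.6% called, against 16.8% of all genes tested, so the share is near the background. Rises made up 15.2% of the proteasome genes against 7.79% of all genes, and falls 4.35% against 9.04%. The genes that rose were Psmd5, Psmb10, Psmd1, Psma7, Psmd7, Psmc6 and Psme4, and those that fell were Psmg3 and Psmc2. All 9 changes were small, with log2 fold changes between -0.46 and 0.41. Both TLX libraries lay above both control libraries in 18 genes and below both in 6, which is 52.2% of the 46 against 57.1% of all genes tested.

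The median log2 fold change of the 46 genes was 0.067, beside 0.00057 for all genes tested. Of the 46 genes 33 were above 0 (71.7%, against 50.1% of all genes tested). Without control replicate 2 the median of the 46 genes was 0.0088. TLX replicate 1 lay above TLX replicate 2 in 34 of the 46 genes, with a median log2 difference of 0.037 over all 46, and control replicate 1 above control replicate 2 in 33, with a median of 0.10. Over all 11024 genes tested these replicate counts were 5398 and 5467, with medians of -0.0037 and -0.0018. For 23 of the 46 genes the difference between groups was smaller than that between the 2 control libraries. The same held for 4702 of all 11024 genes tested. The count of calls rested on single libraries too: 2 rose and 1 fell without TLX replicate 1, and 1 rose and 1 fell without TLX replicate 2, where 9.29% and 9.14% of all genes passed. DESeq2 called 3 rises and 1 fall, and 7.48% of all genes.

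**Figure D2:**
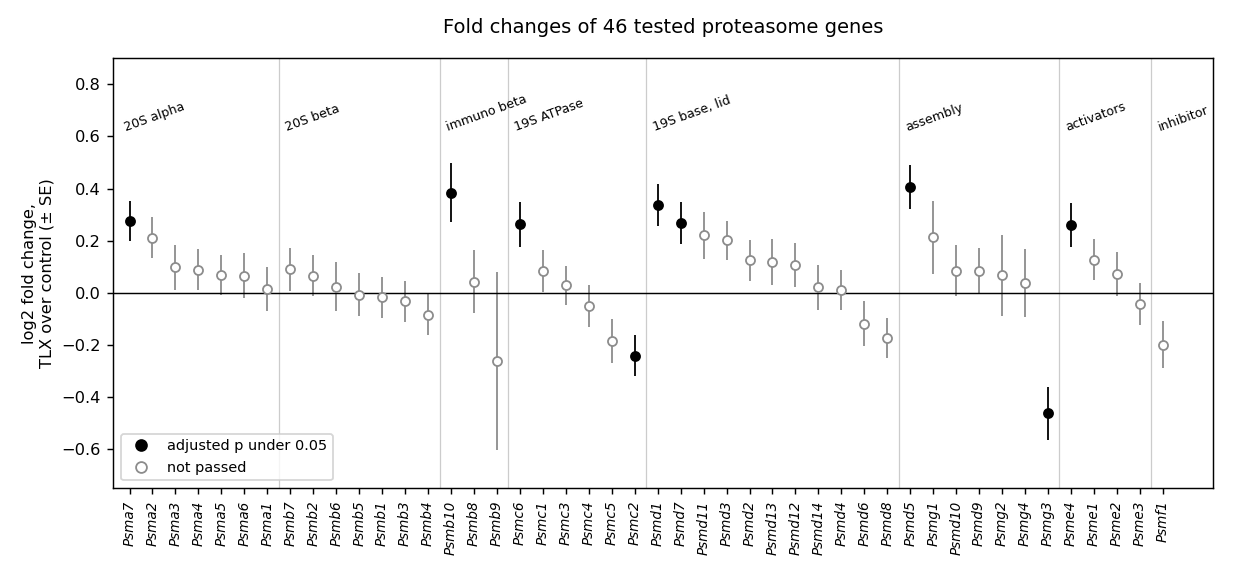
Log2 fold change of TLX over control with its standard error for the 46 tested proteasome genes, ordered within each role. Filled points passed at an adjusted p under 0.05: the highest is Psmd5 at 0.41 and the lowest Psmg3 at -0.46.

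In the alpha ring of the core, Psma7 rose and the other 6 constitutive genes did not pass (14.3% called, against 16.8% of all genes tested). All 7 had a positive log2 fold change, between 0.013 and 0.27, except that Psma1 was at -0.035 without TLX replicate 2 and Psma6 at -0.039 without control replicate 2. Psma7 encodes the alpha4 subunit. It had 228.8 and 219.8 CPM in TLX libraries, against 193.9 and 177.5 CPM in control libraries, so the groups did not overlap (log2 fold change 0.27, SE 0.077, adjusted p = 0.016). It did not pass without control replicate 2 (adjusted p = 0.0513), TLX replicate 1 (0.243) or TLX replicate 2 (0.115), with 0.000686 to 0.243 as the span of 11 alternatives. Psma2 came next, with 119.8 and 117.6 CPM in TLX libraries and 104.5 and 100.7 CPM in control libraries (log2 fold change 0.21, adjusted p = 0.0714). In those 11 it passed only without control replicate 1 (adjusted p = 0.0429; span 0.0429 to 0.397).

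No constitutive beta subunit passed. The 4 structural genes Psmb1 to Psmb4 had log2 fold changes between -0.084 and 0.065 and the catalytic genes Psmb5, Psmb6 and Psmb7 between -0.0084 and 0.089. Of these 7 genes 0 had an unadjusted p under 0.05, against 30.1% of all genes tested. DESeq2 called 0 of the 7, and 7.48% of all genes. Psmb5, the chymotrypsin-like site and the main target of proteasome inhibitor drugs, had 266.6 and 250.6 CPM in TLX libraries, against 281.9 and 238.9 CPM in control libraries. Psmb6, the caspase-like site, had 113.9 and 113.1 CPM in TLX libraries, against 124.8 and 99.2 CPM in control libraries. Psmb7, the trypsin-like site, had 181.6 and 169.7 CPM in TLX libraries, against 177.9 and 152.8 CPM in control libraries. In each of the 3 the TLX values overlapped the control values, and the sign of the log2 fold change turned with the control library used: Psmb5 was at 0.11 without control replicate 1 and -0.12 without control replicate 2, Psmb6 at 0.19 and -0.14, and Psmb7 at 0.20 and -0.019.

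Among the 5 genes of the immunoproteasome and PA28, Psmb10 rose and the other 4 did not pass. That is 1 of 5 called higher and 0 lower, beside 6 higher and 2 lower of 41 other tested proteasome genes. These shares, 20% and 19.5% called, are both near the 16.8% of all genes tested. Psmb10 was the only one of the 5 with an unadjusted p under 0.05 (20%, against 30.1% of all genes tested). DESeq2 called 0 of the 5, and 7.48% of all genes. Psmb10 encodes the inducible trypsin-like subunit. It had 32.0 and 31.4 CPM in TLX libraries, against 26.6 and 22.2 CPM in control libraries (log2 fold change 0.38, SE 0.115, adjusted p = 0.023). The groups did not overlap, and the 2 control libraries lay further apart than the 2 TLX libraries. It did not pass in DESeq2 (adjusted p = 0.196) or without control replicate 2 (0.17), TLX replicate 1 (0.108) or TLX replicate 2 (0.0679), and adjusted p spanned 0.00104 to 0.196.

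Psmb8, the inducible chymotrypsin-like subunit, had 33.4 and 28.5 CPM in TLX libraries, against 33.8 and 26.9 CPM in control libraries (log2 fold change 0.041, SE 0.12, adjusted p = 0.868). The 2 groups covered the same range, and the log2 fold change was 0.20 without control replicate 1 and -0.12 without control replicate 2. Psmb9, the inducible subunit that replaces Psmb6, was counted only 17 and 14 times in TLX libraries, against 23 and 18 times in control libraries. Its log2 fold change of -0.26 had an SE of 0.34 (adjusted p = 0.662), and it was 0.043 without control replicate 1 and -0.56 without control replicate 2, so a difference of that size was not detectable at this depth. Psme1, which encodes PA28 alpha, had 152.8 and 154.5 CPM in TLX libraries, against 146.6 and 135.2 CPM in control libraries (log2 fold change 0.13, SE 0.078, adjusted p = 0.292), with TLX above control throughout. Psme2, which encodes PA28 beta, had 103.1 and 91.6 CPM in TLX libraries, against 95.0 and 90.4 CPM in control libraries (log2 fold change 0.072, SE 0.085, adjusted p = 0.624), with overlapping groups.

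The inducible catalytic subunits were a minor part of the catalytic transcripts in both groups. Per length, Psmb8 stood at 8.92% and 8.10% of Psmb5 in TLX libraries, against 8.52% and 8.01% in control libraries. Psmb9 stood at 2.22% and 2.01% of Psmb6 in TLX libraries, against 2.83% and 2.35% in control libraries. Psmb10 stood at 13.4% and 14.1% of Psmb7 in TLX libraries, against 11.4% and 11.1% in control libraries. Only the first of these ratios overlapped between groups. The 3 inducible genes summed to 9.10% and 8.78% of the 3 constitutive ones in TLX libraries, against 8.27% and 7.90% in control libraries. That is a difference of 0.14 on the log2 scale. Its 2-sided exact permutation p was 0.333, the smallest that 2 against 2 libraries allow. Among the inducible genes the higher level was that of Psmb10 alone, at 24.96 CPM per kilobase in TLX and 19.21 in control. Psmb8 had 25.3 in TLX and 24.78 in control, and Psmb9 2.31 in TLX and 2.83 in control. PA28 transcripts were higher than their constitutive relative. Psme1 stood at 357.5% and 338.8% of Psme3 per length in TLX libraries, against 334.1% and 287.1% in control libraries. Psme2 stood at 241% and 200.9% of Psme3 in TLX libraries, against 216.5% and 192% in control libraries, which overlap.

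**Figure D3:**
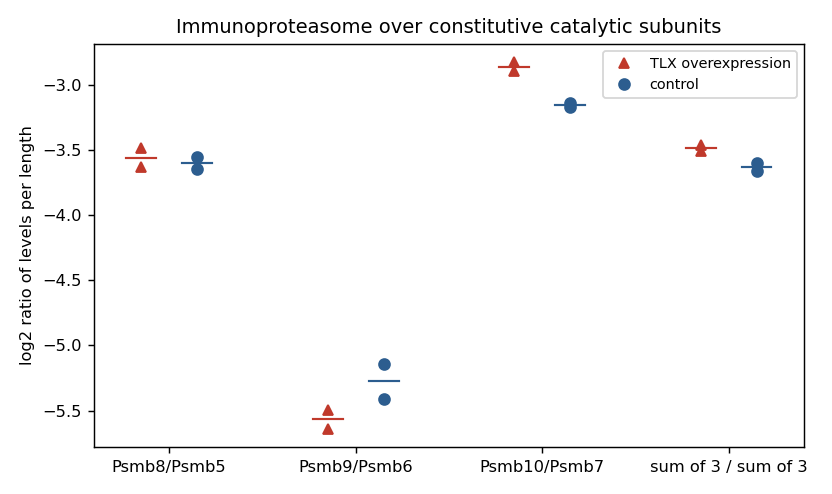
Log2 ratio of the per-length level of each inducible catalytic subunit to its constitutive counterpart in each library, and of the 3 summed; triangles are TLX libraries, circles control libraries and bars group means. Psmb10 over Psmb7 is at -2.90 and -2.83 in TLX libraries and -3.13 and -3.17 in control libraries, and Psmb8 over Psmb5 overlaps between groups.

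Interferon signalling raises Psmb8, Psmb9 and Psmb10, so the letters of its response elements were looked for in RefSeq promoter windows (build GRCm38.p6, 250 bases before to 50 after a start site, both strands). Windows matched 40 of the 48 genes. The gamma-activated site TTCNNNGAA, its own reverse complement, and the core of the interferon-stimulated response element (GAAA, any 2 bases, GAAA) were each found in 1 of the 5 genes. The stretches below are shown because Psmb8 and Psme1 carry them and neither passed. Capitals mark the match, which begins at position -97 from the start site of Psmb8 (chr17:34198088-34198116, plus strand) and at 9 from that of Psme1 (chr14:55578493-55578521, plus strand). The strand is that of the gene, and in Psme1 the capitals are the reverse complement of the interferon element core.
Psmb8: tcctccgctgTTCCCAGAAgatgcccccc
Psme1: cgagctgtgcTTTCGCTTTCccttcccgc
TTCNNNGAA was in 8.3% of all windows and the interferon element core in 3.44%. No match of either was found for Psmb10, the gene that rose, which says only that these letters were not found in the windows searched.

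Of 13 tested genes of peptide processing for MHC class I, 4 rose and 1 fell. That is 30.8% higher and 7.69% lower, against 7.79% and 9.04% of all genes tested. Their median log2 fold change was 0.17. Whether interferon signalling had a part in these values was not tested. Irf1, an inducer of the immunoproteasome genes, had 33.0 and 31.3 CPM in TLX libraries, against 32.4 and 25.3 CPM in control libraries and did not pass (log2 fold change 0.17, adjusted p = 0.371). The genes that rose were Pdia3, the class I heavy chain gene H2-K1, Tapbp and Canx. Pdia3, a thiol oxidoreductase of the loading complex, had 425.5 and 405.9 CPM in TLX libraries, against 336.2 and 335.1 CPM in control libraries, which do not overlap. Log2 fold changes were 0.31 for Pdia3, 0.26 for H2-K1, 0.25 for Tapbp and 0.25 for Canx, with adjusted p between 0.00584 and 0.0347; without TLX replicate 1 or TLX replicate 2 these 4 did not pass (0.061 to 0.332), nor did H2-K1 and Tapbp without control replicate 2 (0.238 and 0.12), H2-K1 in DESeq2 (0.0731), or Tapbp and Canx without normalization factors (0.0636 and 0.063). The peptide transporter gene Tap2 fell, with 111.8 and 103.6 CPM in TLX libraries, against 153.4 and 135.5 CPM in control libraries (log2 fold change -0.42, adjusted p = 0.00105, and 0.0514 without TLX replicate 2). Its partner Tap1 had 36.5 and 35.4 CPM in TLX libraries, against 38.5 and 32.3 CPM in control libraries (log2 fold change 0.029, adjusted p = 0.894). B2m and H2-D1, which had the highest levels per length of those that did not pass, had log2 fold changes of 0.037 and 0.10. The rest of the list did not pass either and went both ways. Log2 fold changes were 0.23 for Calr, 0.21 for Erap1, -0.035 for Tapbpl and -0.27 for Nlrc5 (adjusted p = 0.0709, 0.22, 0.859 and 0.315).

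In the ATPase ring of the cap 1 of 6 genes rose and 1 fell. In so small a set 1 gene makes 16.7%, beside 7.79% higher and 9.04% lower of all genes tested. Psmc6 had 70.6 and 70.5 CPM in TLX libraries, against 61.3 and 56.5 CPM in control libraries (log2 fold change 0.26, SE 0.087, adjusted p = 0.0412). Psmc2 had 147.1 and 150 CPM in TLX libraries, against 184.4 and 167.4 CPM in control libraries (log2 fold change -0.24, SE 0.078, adjusted p = 0.0348). Neither overlapped between groups. Neither passed in DESeq2 (adjusted p = 0.226 and 0.125), without TLX replicate 1 (0.228 and 0.296) or without TLX replicate 2 (0.213 and 0.225), and Psmc6 also failed without control replicate 2 (0.159), without normalization factors (0.0606) and without a filter on low counts (0.0522), and Psmc2 without control replicate 1 (0.117). The span was 0.0128 to 0.228 for Psmc6 and 0.00126 to 0.296 for Psmc2. Psmc5 had 140.4 and 129.6 CPM in TLX libraries, against 165.1 and 142.3 CPM in control libraries (log2 fold change -0.18, adjusted p = 0.143, span 0.00392 to 0.629, the lowest being that without control replicate 2). Psmc1, Psmc3 and Psmc4 had log2 fold changes between -0.052 and 0.083.

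Of the 3 tested scaffold and ubiquitin receptor genes of the base Psmd1 rose, and of 8 lid genes Psmd7 rose. In base and lid 0 were lower. Over all genes tested 7.79% rose and 9.04% fell. In DESeq2 0 of these base and lid genes were lower as well. At an unadjusted p under 0.05, 1 of them was lower, Psmd8, beside 1686 of all 11024 genes tested. Psmd1, the larger scaffold, had 155.2 and 167.9 CPM in TLX libraries, against 121.7 and 133.9 CPM in control libraries (log2 fold change 0.34, SE 0.081, adjusted p = 0.00541). It passed in 10 of 11 alternatives and failed without TLX replicate 2 (adjusted p = 0.162; span 3.47e-05 to 0.162). Psmd7, the partner of the deubiquitinase Psmd14 in the lid, had 111.1 and 112.1 CPM in TLX libraries, against 94.4 and 91.3 CPM in control libraries (log2 fold change 0.27, SE 0.080, adjusted p = 0.024). It failed in DESeq2 (0.116), without TLX replicate 1 (0.189) and without TLX replicate 2 (0.213; span 0.0113 to 0.213).

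Other cap genes had smaller differences. Psmd3 and Psmd11 had log2 fold changes of 0.20 and 0.22 with TLX above control in every library (adjusted p = 0.0687 and 0.104). Psmd3 passed without control replicate 1 (0.0358; span 0.0358 to 0.373) and Psmd11 without control replicate 2 (0.0295; span 0.0295 to 0.397). Psmd13 shifted most with the control libraries: its log2 fold change of 0.12 (adjusted p = 0.405) was 0.27 without control replicate 1, where it passed (0.0103), and -0.024 without control replicate 2 (span 0.0103 to 0.904). Psmd8 had 307.2 and 289.8 CPM in TLX libraries, against 349.6 and 324.1 CPM in control libraries, a log2 fold change of -0.17 (adjusted p = 0.129, and 0.0269 when control replicate 2 was left out; span 0.0269 to 0.612). Psmd6, another lid gene, also lay below control in both TLX libraries, with a log2 fold change of -0.12 (adjusted p = 0.378). The deubiquitinase gene Psmd14 had 105.8 and 92.0 CPM in TLX libraries, against 98.5 and 96.8 CPM in control libraries (log2 fold change 0.021, adjusted p = 0.905), and the ubiquitin receptor gene Psmd4 had a log2 fold change of 0.010. Psmd2, the other scaffold and the gene with most counts of the base, had 475.2 and 456.8 CPM in TLX libraries, against 448.4 and 407.5 CPM in control libraries (log2 fold change 0.12, adjusted p = 0.307).

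The largest change in each direction was that of an assembly chaperone. Psmd5, which helps to assemble the base of the cap and is not part of the finished proteasome, had 108.6 and 111.0 CPM in TLX libraries, against 78.1 and 87.3 CPM in control libraries (log2 fold change 0.41, SE 0.084, adjusted p = 0.00157). Psmg3, a chaperone of the core's alpha ring known as PAC3, had 29.8 and 28.4 CPM in TLX libraries, against 39.1 and 41.1 CPM in control libraries (log2 fold change -0.46, SE 0.10, adjusted p = 0.0026). The libraries of the 2 groups are well apart in both genes. These are the only proteasome genes that passed in all 11 alternatives, with adjusted p of 4.67e-06 to 0.0287 for Psmd5 and 0.000217 to 0.0418 for Psmg3. The other cap chaperones Psmd9 and Psmd10 had log2 fold changes of 0.082 and 0.084, and the other core chaperones Psmg1, Psmg2 and Psmg4 of 0.21, 0.066 and 0.037 (adjusted p between 0.331 and 0.888). Psmg4, known as PAC4 and the partner of Psmg3, had 16.9 and 18.8 CPM in TLX libraries, against 17.95 and 16.8 CPM in control libraries.

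Of the activators outside the interferon response, Psme4 rose and Psme3 did not pass. Psme4, which encodes PA200, had 99.2 and 108.4 CPM in TLX libraries, against 83.2 and 90.04 CPM in control libraries (log2 fold change 0.26, SE 0.085, adjusted p = 0.0375). It failed in DESeq2 (0.167), without normalization factors (0.0542), and without control replicate 1 (0.103), TLX replicate 1 (0.0965) or TLX replicate 2 (0.401), with a span of 0.00596 to 0.401. Psme3, the nuclear PA28 gamma, had 114.6 and 122.3 CPM in TLX libraries, against 117.6 and 126.3 CPM in control libraries (log2 fold change -0.044, adjusted p = 0.771). Psmf1, which encodes the core inhibitor PI31, had 45.2 and 46.1 CPM in TLX libraries, against 51.6 and 53.2 CPM in control libraries (log2 fold change -0.20, SE 0.091, adjusted p = 0.14), with TLX below control throughout. Psmc3ip, the match that is no proteasome gene, had 8.43 and 7.56 CPM in TLX libraries, against 8.02 and 7.24 CPM in control libraries (log2 fold change 0.076, adjusted p = 0.83).

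Of 23 tested subunits, shuttles and regulators outside the name pattern 1 rose and 3 fell, with a median log2 fold change of 0.021. That is 17.4% called, near the 16.8% of all genes tested. Nfe2l1 encodes NRF1, the transcription factor that raises proteasome genes when proteasome activity falls. It had 427.8 and 438.6 CPM in TLX libraries, against 587.7 and 584.4 CPM in control libraries (log2 fold change -0.44, SE 0.076, adjusted p = 0.00026). Zfand2a, a stress-induced gene whose protein binds the proteasome, had 209.9 and 210.6 CPM in TLX libraries, against 296.2 and 307.4 CPM in control libraries (log2 fold change -0.52, SE 0.075, adjusted p = 2.79e-05). In both genes the 2 groups stand far apart beside the spread within them, and both passed in all 11 alternatives.

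Akirin2, which mediates import of proteasomes into the nucleus, had 38.5 and 36.1 CPM in TLX libraries, against 43.8 and 48.0 CPM in control libraries (log2 fold change -0.30, adjusted p = 0.0347). It failed in DESeq2 (0.246) and without control replicate 2 (0.141), TLX replicate 1 (0.105) or TLX replicate 2 (0.282; span 0.00603 to 0.282). Vcp, the segregase that extracts ubiquitinated proteins for the proteasome, had 588.5 and 585.1 CPM in TLX libraries, against 471 and 454.7 CPM in control libraries (log2 fold change 0.34, adjusted p = 0.00281), with 0.0656 without TLX replicate 1 and 0.0588 without TLX replicate 2 (span 0.000316 to 0.0656). Ddi2, the protease that activates NRF1, had a log2 fold change of -0.23 and did not pass (adjusted p = 0.0734). Shfm1, a small cap subunit, and Pomp, the maturation factor of the core, had the highest levels per length of those that did not pass, with log2 fold changes of 0.11 and -0.042 (adjusted p = 0.433 and 0.773); Shfm1 passed without control replicate 1 (0.0257) and had a log2 fold change of -0.026 without control replicate 2.

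Because NRF1 acts through antioxidant response elements, proteasome promoters with the core TGACNNNGC are shown with their genes' values. The core was searched on both strands and found in 6 of the 43 windows of proteasome genes (14%), against 12.4% of all windows. Capitals mark the core. From each start site it begins at position -47 in Psmb5 (chr14:54618024-54618052, minus strand), -9 in Psmb6 (chr11:70525338-70525366), -227 in Psmc6 (chr14:45329587-45329615), -247 in Psmd12 (chr11:107479278-107479306), -31 in Psmd9 (chr5:123228149-123228177) and -7 in Psme4 (chr11:30771758-30771786). Each stretch is written along the strand of its gene, which is minus for Psmb5 and plus for the others. In Psmc6, Psmd12 and Psme4 the capitals are the reverse complement of the core.
Psmb5: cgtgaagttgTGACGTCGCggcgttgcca
Psmb6: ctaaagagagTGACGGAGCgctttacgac
Psmc6: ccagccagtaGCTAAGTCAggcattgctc
Psmd12: tctGCTGTGTCAcatttgcccccctcaga
Psmd9: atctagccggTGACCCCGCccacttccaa
Psme4: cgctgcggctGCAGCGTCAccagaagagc
In this order the log2 fold changes of the 6 genes were -0.0084, 0.023, 0.26, 0.10, 0.082 and 0.26. Psmc6 and Psme4 rose and the other 4 did not pass, where 7.79% of all genes tested rose. Neither rise passed in DESeq2 (adjusted p = 0.226 and 0.167). Nfe2l1 itself fell, and a link between it and these genes was not tested.

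**Figure D4:**
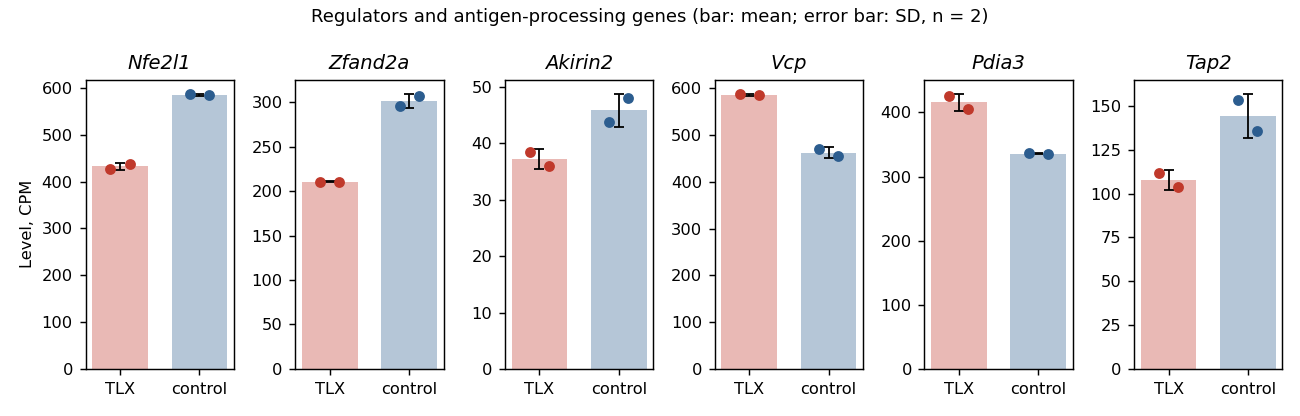
Levels in CPM of Nfe2l1, Zfand2a, Akirin2, Vcp, Pdia3 and Tap2; bars are means of the TLX and control libraries, error bars the SD (n = 2) and points single libraries. Nfe2l1 is at 433 CPM in TLX and 586 CPM in control, and no TLX point overlaps a control point in any panel.

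Of 13 tested ubiquitin, E1 and E2 genes 1 rose and 0 fell (7.69% called, against 16.8% of all genes tested), while edgeR had 1 lower before adjustment (p under 0.05) and DESeq2 0. Their median log2 fold change was 0.14, and the TLX libraries lay above both control libraries in 7 and below both in 2, which is 69.2% against 57.1% of all genes tested. Ube2c, the ubiquitin-conjugating enzyme of the mitotic ligase APC/C, had 89.5 and 88.2 CPM in TLX libraries, against 68.0 and 76.1 CPM in control libraries (log2 fold change 0.30, adjusted p = 0.0178). It failed in DESeq2 (0.102) and without control replicate 1 (0.0803), TLX replicate 1 (0.154) or TLX replicate 2 (0.109; span 0.00111 to 0.154). Rps27a, which encodes ubiquitin fused to a ribosomal protein, had a log2 fold change of -0.18 (adjusted p = 0.144). The polyubiquitin gene Ubb had 566 and 546 CPM in TLX libraries, against 659.7 and 547.8 CPM in control libraries, and Uba1, the main E1 enzyme, had 282.6 and 281.5 CPM in TLX libraries, against 256.9 and 225.1 CPM in control libraries (adjusted p = 0.387 and 0.0509). Ubb passed when control replicate 2 was left out, at 0.025 with a log2 fold change of -0.25, and adjusted p spanned 0.025 to 0.915.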

How the data were processed

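RNA-seq was analysed for 4 libraries of MIN6 cells, 2 labelled TLX overexpression and 2 labelled control. The mouse build mm9 and TopHat2 2.0.13 are named, with no roles, in the submitters' processing notes. The annotation, the counter, the use of strand and the treatment of reads with several matches were not given in the sources used here. Raw read counts per feature, with a length for each feature, are what the authors deposited, per the file headers. Of 56826 rows, 33353 are FANTOM3 cDNA clones, which held 23.3% to 25.1% of the counts; neither library sizes nor tests include them. RefSeq lists 7 copies (Psma5-ps, Psmb5-ps, Psmb6-ps, Psmb6-ps2, Psmb7-ps1, Psmb7-ps2 and Psme2b) with no row in the table, so values of Psma5, Psmb5, Psmb6, Psmb7 and Psme2 are uncertain as to shared reads.

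Low gene rows were removed by filterByExpr (minimum count 10), which left 11024. TMM factors set the library sizes. TLX was compared with control in edgeR's quasi-likelihood test (2 residual degrees of freedom), and p-values were adjusted by Benjamini-Hochberg over those 11024 genes, with 0.05 as threshold. The SE is the log2 fold change divided by the square root of F. The precision is limited by 2 libraries a group and by counts of 14 to 4113 a library for tested proteasome genes. Software was edgeR 4.0.16, DESeq2 1.42.0 and limma 3.58.1 under R 4.3.3.

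The proteasome genes and the other lists were chosen with earlier results of these data known. By rule, every called gene of a list, the 5 highest and 5 lowest log2 fold changes, the immunoproteasome genes with their counterparts and the highest genes not called were named. Psma2, Psmc1, Psmc3, Psmc4, Psmd2, Psmd3, Psmd4, Psmd6, Psmd8, Psmd11, Psmd13, Psmd14, Irf1, Tap1, Calr, Erap1, Tapbpl, Nlrc5, Ddi2 and Uba1 were named after their values were seen. In the lists, Ecm29 and Ube2d2 stand in the table as AI314180 and Ube2d2a, and Paaf1 was not analysed here. A further 2 genes of these lists are not reported here and were left out of the list counts after the data were seen. Sequences are RefSeq's, of GRCm38.p6; that build differs from mm9. Libraries of 1 group were compared by a chi-square per gene, with medians of 0.924 for the TLX pair and 1.13 for the control pair, above the 0.455 of sampling noise alone, so both pairs count as separate libraries. The 11 alternatives were DESeq2's size factors, no normalization factors, no filter, a filter of 10 CPM, limma-voom, the Wald test of DESeq2, leaving out each library and, added after the data were seen, a fit without Rn45s and Lars2; a block for the replicate number was tried beside them.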

Additional observations from a re-analysis of the deposited data

How the results depend on the processing

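With the numbers in the titles as a replicate block, 10 proteasome genes rose and 4 fell, against 7 and 2 without it, and 10 of the other ubiquitin-proteasome genes rose, against 6. Same-numbered libraries deviated together with a correlation of 0.141 over genes, but with only 2 pairs and no label that ties them, the numbers were not taken as pairs. In DESeq2 3 proteasome genes rose and 1 fell, and 0 immunoproteasome and PA28 genes rose. Leaving out 1 library at a time gave 1 to 9 proteasome genes higher and 1 to 4 lower, 0 to 1 immunoproteasome and PA28 genes higher, 0 to 10 other ubiquitin-proteasome genes higher and 2 to 4 lower, a median log2 fold change of 0.0088 to 0.10 and a difference in the log2 ratio of inducible to constitutive catalytic subunits of 0.11 to 0.18. In such fits the lone sample of a group is assumed to vary like the other group, and the cause of these shifts was not tested beyond the smaller number of libraries. DESeq2 size factors, no normalization factors, no filter, a filter of 10 CPM, limma-voom and the fit without Rn45s and Lars2 kept each count within 1.5 times its value, and none of the 9 called proteasome genes turned its direction in any setting. Over all genes 1856 passed, against 825 in DESeq2, 2982 with the block, 1039 without TLX replicate 1 and 1024 without TLX replicate 2. Psmb9, at 14 to 23 counts a library, is limited by depth.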

Other observations

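Motif counts over all 43 RefSeq windows are given as values with no explanation. CCAAT, on either strand, was in 32.6% of them and in 37.4% of all windows. The core of the interferon-stimulated response element was in 5 windows (11.6%, against 3.44% of all), those of Psmb3, Psmd4, Psmd9, Psme1 and Psmg4. None of these 5 genes passed the test, where 16.8% of all genes tested did, and 5 genes are too few to tell their share from that. Their log2 fold changes lay between -0.033 and 0.13.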
